A study of Mus musculus with 24 samples.

Results

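The genes described here are 10 genes of the lipid droplet, the organelle in which cells store triglyceride: the coat proteins Plin2, Plin3, Plin4 and Plin5, the fusion factors Cidea, Cideb and Cidec, the lipase Pnpla2, and its inhibitors G0s2 and Hilpda. They were taken by gene symbol, from a list chosen with earlier results of these data known. All 10 were found among the 40481 genes of each table. RNA was sequenced from liver and ileum of C57BL/6 mice, every one of which had undergone resection of 75% of the small bowel, so that no group kept an intact bowel. Floxed mice were Abca1 fl/fl. Villin-Cre mice were Abca1 fl/fl X Villin-Cre, in which a promoter active in intestinal epithelium drives Cre, so that the deletion is aimed at that epithelium and not at the liver. Both genotypes received vehicle (0.5% carboxymethyl cellulose) or GW3965, an agonist of the liver X receptors (LXR), at an oral dose of 1 mg/kg/day on 2 occasions a week in the last 5 of 10 weeks after surgery. The 8 groups (floxed vehicle, floxed GW3965, Villin-Cre vehicle and Villin-Cre GW3965 in each tissue) held 3 libraries each, 24 in all.

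Perilipins coat the droplet surface and control the access of lipases. CIDE proteins gather where droplets touch and pass lipid from the smaller to the larger one, and Cideb also serves the loading of very low density lipoprotein in hepatocytes. Pnpla2 encodes ATGL, which makes the first cut in triglyceride, and both G0s2 and Hilpda bind and inhibit it. In steatotic liver, Plin2 and Cidec are commonly raised, and several of these genes are known targets of PPAR nuclear receptors, while Hilpda is a known target of hypoxia-inducible factors.

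Libraries held 26.4 to 32.3 M assigned reads in the liver and 16.97 to 24.2 M in the ileum. Levels are given as reads per 1 M assigned reads (CPM), with the SD over 3 libraries. Abca1, the targeted gene, fell with Villin-Cre in the ileum, from 57.2 ± 2.83 CPM to 28.3 ± 2.47 with vehicle and from 372 ± 105 to 53.8 ± 0.158 under GW3965, and it was also lower in the Villin-Cre liver, at 225 ± 0.25 against 335 ± 7.81 CPM with vehicle. Libraries of a group were alike: in the liver, 10 of the 12 within-group pairs had a variance of 2.58 to 3.584 times the Poisson variance, against 8.459 to 73.23 between groups. Liver floxed GW3965 replicate 1 stood apart from the other 2 libraries of its group (12.02 and 12.13). In the ileum, 9 pairs within a group had 2.609 to 3.446 times the Poisson variance, against 14.11 to 81.85 between groups. The other 3 pairs had 4.531 to 9.921. They were floxed GW3965 replicate 3 with each other library of its group, and floxed vehicle replicates 2 and 3. Since no label links a library to an animal, the p-values measure spread between libraries only, and that spread may be technical.

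In the mouse genome (GRCm38), Plin2 lies on the minus strand of chromosome 4 (86648386 to 86670060), Cidec on the minus strand of chromosome 6 (113424634 to 113435760) and Hilpda on the plus strand of the same chromosome (29272488 to 29275446). Plin4 (56100591 to 56109803) and Plin5 (56111601 to 56117596) are neighbours on the minus strand of chromosome 17, with 1797 bases between them, and Plin3 is on that chromosome too (56277476 to 56292873). G0s2 lies on chromosome 1, Pnpla2 on chromosome 7 and Cideb on chromosome 14. Cideb shares 1136 exon bases with Nop9 on the opposite strand. As no source used here states the strand setting of the counting, reads of Nop9 may be part of the Cideb value.

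Cidec, Hilpda and Plin2 had the widest ranges of group means in the set (3.93, 2.12 and 2.01 on the log2 scale), and their promoter windows, from 250 bases before to 50 after a RefSeq start site in GRCm38.p6, are shown 5′ to 3′ on the gene's own strand. Capitals mark matches to a motif. The windows are chr6:113435711-113436010 (minus strand) for Cidec, chr4:86670010-86670309 (minus strand) for Plin2, and chr6:29272376-29272675 (plus strand) for the second of 2 Hilpda start sites. Cidec, too, has 2 start sites, and the window of the upstream one is shown.
Cidec: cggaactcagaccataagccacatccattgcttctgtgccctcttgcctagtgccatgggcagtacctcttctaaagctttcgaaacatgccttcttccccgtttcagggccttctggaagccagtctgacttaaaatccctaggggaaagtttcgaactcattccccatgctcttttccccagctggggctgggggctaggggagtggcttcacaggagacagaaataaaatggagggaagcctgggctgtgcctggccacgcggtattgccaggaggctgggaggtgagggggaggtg
Plin2: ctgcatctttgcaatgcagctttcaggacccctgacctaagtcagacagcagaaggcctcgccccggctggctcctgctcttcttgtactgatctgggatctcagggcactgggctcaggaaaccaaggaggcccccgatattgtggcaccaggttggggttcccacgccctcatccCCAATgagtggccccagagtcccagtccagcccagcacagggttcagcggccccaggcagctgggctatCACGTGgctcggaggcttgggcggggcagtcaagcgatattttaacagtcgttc
Hilpda: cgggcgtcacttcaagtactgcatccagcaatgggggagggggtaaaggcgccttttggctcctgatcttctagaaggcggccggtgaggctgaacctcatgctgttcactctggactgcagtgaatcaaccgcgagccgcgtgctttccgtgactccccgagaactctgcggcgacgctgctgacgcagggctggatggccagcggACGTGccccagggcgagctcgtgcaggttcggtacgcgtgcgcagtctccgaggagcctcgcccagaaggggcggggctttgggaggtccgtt

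The 7 motifs were searched on both strands of the 12 windows of 9 members, Cidea having none in the table. The DR1 repeat of PPAR (2 copies of AGGNCA with 1 base between them) is in 0.381% of all 32851 windows and the DR4 repeat of LXR (the same copies with 4 bases between them) in 0.253%, and no member window held either. CACGTG (the E-box, 7.15% of windows) stands at -4 in Plin2, where it overlaps ACGTG (the hypoxia response core, 19.6%) on both strands, and Hilpda holds ACGTG at -43. No member window held TCACNCCAC (the sterol response element, 1.24%). CCAAT or its reverse ATTGG (37.4%) was found in Plin2 at -73, and in Plin3, Plin4 and Plin5, and TATAAA (13.6%) in Cideb. The Cidec window shown, with no capitals, held none of the 7, nor did that of its other start site.

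In the liver of floxed mice given vehicle, Plin2 was the leading member per length of transcript, at 264 ± 7.73 CPM per kb, followed by G0s2 at 127 ± 2.94. Pnpla2 (40.0 ± 1.02 CPM per kb), Plin5 (36.2 ± 0.715), Cidec (30.2 ± 0.358) and Cideb (27.0 ± 1.15) came next. Plin3 (14.9 ± 0.724 CPM per kb), Hilpda (3.27 ± 0.508), Plin4 (2.97 ± 0.163) and Cidea (0.541 ± 0.157) were lowest. Neighbours in this order were apart by more than their SDs, save Hilpda and Plin4. All 10 members were tested in the liver. Cidea passed the filter of 0.5 CPM in 3 libraries through 6 libraries of the 12.

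**Figure D1:**
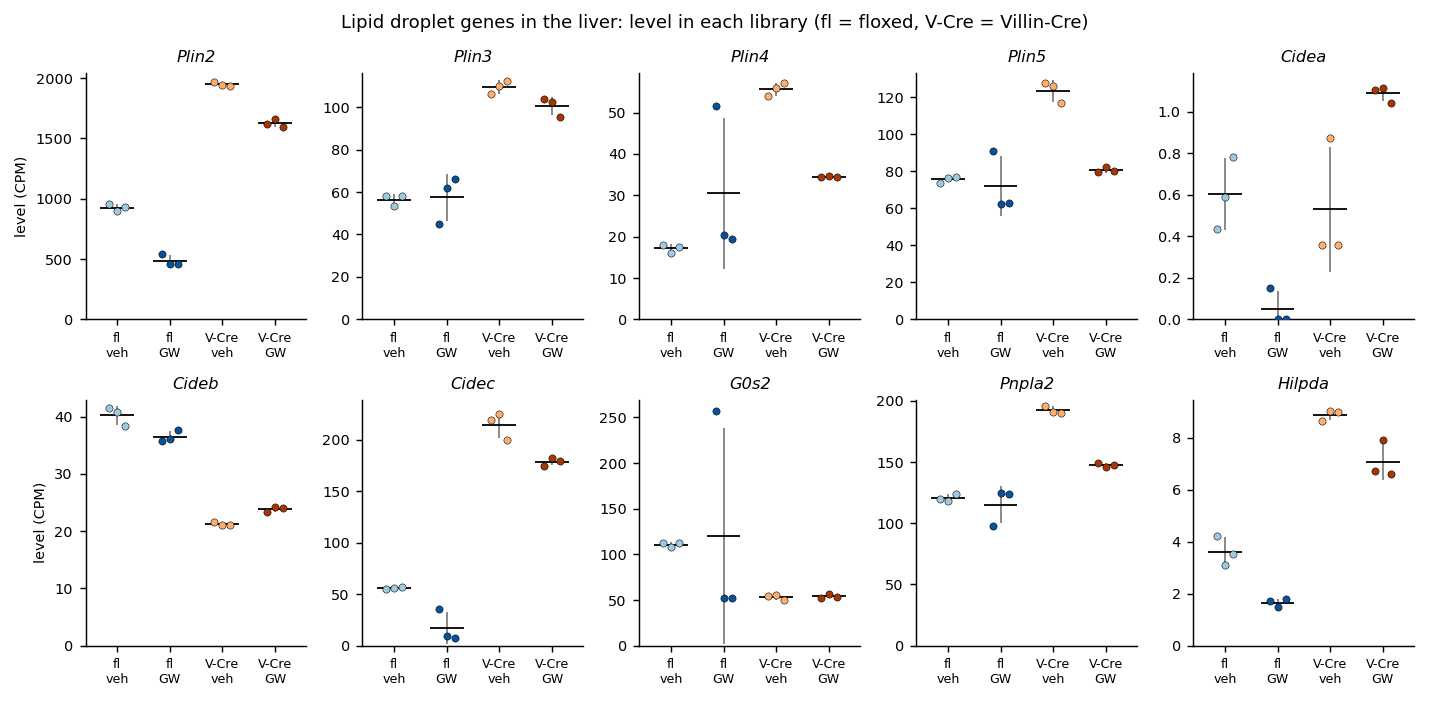
Level (CPM, linear axis from 0) of each member in the 12 liver libraries. Points are libraries, black lines are group means and grey lines 1 SD. Plin2, Plin3, Cidec, Pnpla2 and Hilpda are higher in both Villin-Cre groups than in both floxed groups, and the first floxed GW3965 library lies apart for Plin4, Cidec and G0s2.

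The Villin-Cre liver carried more RNA of most of the 10 members. With vehicle, 7 of the 10 members were higher than in floxed mice and 2 were lower, where 45.1% of all genes tested were called higher and 11.7% lower (limma on log2(CPM + 0.5), Benjamini-Hochberg adjusted p under 0.05). Cidec, Plin4, Hilpda and Plin2 rose most, and Cideb and G0s2 fell. Villin-Cre libraries read higher for genes at large, with a median log2 difference of 0.26 over all genes and of 0.83 over the members. After rescaling by the median of gene ratios, 21.6% of all genes were called higher and 22.2% lower, and the members stayed at 7 higher and 2 lower, with a median of 0.54. With close libraries of a group averaged into 1, 0 of the 10 members were called by limma, and 8 had an unadjusted p under 0.05. Such averaging left more than 1 value only in the floxed GW3965 group, so the loss of calls was largely set by the design. Other genes of droplet coat, assembly and budding did not share the direction of the members. Of 17 tested, 4 were called higher and 8 lower (2 and 12 after rescaling), with Fitm1 at -2.04, Hsd17b11 at -0.62 and Lpcat1 at 1.08 on the log2 scale.

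Plin2, the main perilipin of hepatocytes, stood at 953, 899 and 927 CPM in floxed vehicle livers and at 1964, 1941 and 1935 in Villin-Cre vehicle livers. The groups lay far apart, with Villin-Cre at 2.1 times the floxed mean (log2 fold change 1.07 ± 0.06 SE, adjusted p = 3.9e-09 by limma). Plin3, the exchangeable perilipin that binds early droplets, went from 56.4 ± 2.74 to 109 ± 3.12 CPM (log2 0.95, adjusted p = 3e-06). Plin5, which ties droplets to mitochondria in oxidative tissue, went from 75.6 ± 1.49 to 123 ± 5.87 CPM (log2 0.70, adjusted p = 6.2e-05). For Plin4, a perilipin best known from adipocytes and muscle, the floxed libraries held 18.0, 16.2 and 17.4 CPM and the Villin-Cre libraries 54.0, 56.1 and 57.1. That was a rise of 1.67 ± 0.25 on the log2 scale (adjusted p = 5.2e-05).

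Cidec, the droplet fusion factor also called FSP27, held 55.4, 56.2 and 56.7 CPM in floxed vehicle livers and 219, 225 and 199.9 in Villin-Cre vehicle livers. All Villin-Cre libraries exceeded all floxed ones, with a log2 fold change of 1.92 ± 0.37 (adjusted p = 0.00045 by limma). Cideb moved the other way, from 41.6, 40.8 and 38.3 CPM to 21.6, 21.1 and 21.0, again without overlap (log2 -0.90 ± 0.06, adjusted p = 9.5e-09). Per kb, the Cidec to Cideb ratio was thus 1.12 in floxed and 8.1 in Villin-Cre livers. Any reads of Nop9 in the Cideb value would enter this ratio too. Cidea, which is normally scarce in lean liver, stayed low at 0.603 ± 0.174 and 0.529 ± 0.3 CPM and did not pass the test.

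Among the lipolysis genes, Pnpla2 went from 120.2, 118 and 124 CPM to 196, 191 and 189.98 (log2 0.67 ± 0.07, adjusted p = 2.6e-06 by limma). Its inhibitor Hilpda held 4.2, 3.09 and 3.54 CPM in floxed livers and 8.65, 9.005 and 8.99 in Villin-Cre livers. Both genes were higher in every Villin-Cre library, and for Hilpda the log2 fold change was 1.2 ± 0.13 (adjusted p = 2.7e-06). G0s2, the other inhibitor, went down, from 112, 108 and 112 CPM to 54.3, 55.5 and 49.97. The groups did not overlap, but its adjusted p was 0.044 and lay between 0.057 and 0.1 in 9 of the 12 fits that left out 1 library. These fits share their spread with the floxed GW3965 group, where G0s2 held 257 CPM in replicate 1 and 52.0 and 51.7 in the others. The fit of only the groups compared again called 7 members higher and 2 lower.

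Markers of other cells moved along with these genes, in a comparison where 45.1% of all genes were called higher and 11.7% lower. All 11 macrophage markers were called higher in the Villin-Cre vehicle liver, their sum going from 686 to 694 CPM to 1642 to 1685, with Gpnmb rising by 2.33 and Cd68 by 1.69 on the log2 scale. Of 9 hepatic stellate cell markers, which mark cells that store retinyl esters in droplets, 6 were called higher and 1 lower, and the sum went from 432 to 439 CPM to 573 to 590.3. Hepatocyte markers went down in 8 of 10 cases and up in 1. In bulk RNA, fewer cells of a type and less RNA per cell cannot be told apart, and the part of these cells in the droplet gene results was not tested. The most abundant transcript was Alb in floxed vehicle livers (5.66 to 5.86% of reads) and Gm26917 in Villin-Cre vehicle livers (4.12 to 4.26%). The part of Gm26917 was not tested either. Of the 9 adipocyte markers, 3 were tested in the liver and 1 was called higher (Fabp4, from 4.78 to 10.96 CPM), 1 lower (Car3, from 638 to 35.3) and Lipe, at 16.9 and 17.96, neither. Over all liver libraries Adipoq was at 0 to 0.0724 CPM, Plin1 at 0 to 0.198, Lep at 0 to 0.295, Retn at 0 to 0.142, Cfd at 0 to 1.4 and Ucp1 at 0. The summed level was 649.9 to 667 CPM in floxed and 63.4 to 66.5 in Villin-Cre vehicle livers, nearly all of it Car3 in the former.

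The other lipid lists split differently in the same comparison, where 45.1% of all genes were called higher and 11.7% lower (21.6% and 22.2% after rescaling). Of 17 PPAR-alpha targets outside the set, 14 were called lower in the Villin-Cre vehicle liver and 3 higher, with Cyp4a10 at -1.3 and Acaa1b at -1.24 on the log2 scale. Of 14 LXR and SREBP-1c lipogenic targets, 13 were called lower and 1 higher, among them Scd1 at -1.59, Scd2 at -1.47, Mlxipl at -1.36 and Srebf1 at -0.83. Lipolysis genes outside the set were lower in 7 and higher in 3 of 15 tested, with the hepatic esterases Ces3a at -2.68, Ces1f at -1.66 and Ces1d at -1.44. Fatty acid uptake genes were called higher in 5 and lower in 7 of 13, triglyceride export genes higher in 3 and lower in 5 of 10, and triglyceride synthesis genes higher in 5 and lower in 4 of 15. Hypoxia targets were called higher in 6 and lower in 3 of 11, with Slc2a1 at 1.52 and Pdk1 at -1.41.

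Under GW3965 the genotypes differed further for Cidec, Plin2 and Hilpda. Of the 10 members 6 were called higher in Villin-Cre livers and 1 lower, where 40.9% of all genes were called higher and 15% lower. After rescaling these were 26.1% and 24.8%, with 5 members higher and 1 lower. Averaging close libraries left 4 called, all higher (Plin2, Cidea, Cidec and Hilpda). Cidec held 35.3, 9.16 and 7.67 CPM in floxed GW3965 livers and 175, 182 and 179 in Villin-Cre GW3965 livers, 10.3 times the floxed mean (log2 3.66 ± 0.37, adjusted p = 8.7e-07 by limma). The floxed libraries were all lower, and without floxed GW3965 replicate 1 the log2 difference was 4.33.

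Plin2 was at 541, 457 and 455 CPM in floxed and 1623, 1658 and 1592 in Villin-Cre GW3965 livers, and Hilpda at 1.7, 1.49 and 1.79 against 6.71, 7.89 and 6.62. Neither gene's groups overlapped, with log2 fold changes of 1.75 ± 0.06 and 1.81 ± 0.13 (adjusted p = 1.8e-11 and 3e-08 by limma). Plin3 (log2 0.82), Cidea (1.54) and Pnpla2 (0.37) were also called higher and Cideb (-0.60) lower, though Pnpla2 came to 0.13 (adjusted p = 0.13) after rescaling. Plin4 (0.32), Plin5 (0.19) and G0s2 (-0.70) did not pass the test, and without floxed GW3965 replicate 1 Plin4 (0.77) and Plin5 (0.37) did.

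GW3965 went with lower levels of the same 3 genes in the floxed liver. Of the 10 members 4 were called lower and 0 higher, against 19.7% and 10.4% of all genes. Plin4, the one member with an unadjusted p under 0.05 upward, was at 0.66 (adjusted p = 0.058). After rescaling, Plin4 was called higher (0.71, adjusted p = 0.049) beside 4 members lower, with 16.5% of genes lower and 13.4% higher. With close libraries averaged 0 were called, and 4 had an unadjusted p under 0.05. Plin2 went from the 953, 899 and 927 CPM of vehicle livers to 541, 457 and 455 (log2 -0.94 ± 0.06, adjusted p = 1.2e-07 by limma). Cidec went from 56.1 ± 0.665 to 17.4 ± 15.6 CPM, a mean drawn up by replicate 1 (log2 -2.00 ± 0.37, adjusted p = 0.00089). Hilpda went from 3.61 ± 0.56 to 1.66 ± 0.152 CPM (log2 -0.92, adjusted p = 0.00012). Cidea held 12, 18 and 23 reads in the vehicle libraries and 4, 0 and 0 with GW3965 (log2 -1.0, adjusted p = 0.0031).

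Replicate 1 of the floxed GW3965 group decided several of the other members. G0s2 held 257 CPM there and 52.0 and 51.7 in the other 2 libraries, against 112, 108 and 112 with vehicle. Plin4 held 51.6 CPM there and 20.5 and 19.5 in the others. That library lay above vehicle for G0s2 and the other 2 lay below, so that the groups overlapped. In the fit of all libraries, Plin3 (log2 0.01), Plin5 (-0.09), Cideb (-0.14), G0s2 (-0.32) and Pnpla2 (-0.07) did not pass. Without it, 8 members were called, with G0s2 at -1.09, Plin5 at -0.27 and Cidec at -2.67 lower, and Plin4 at 0.21 and Plin3 at 0.18 higher on the log2 scale. Its macrophage marker sum was 453 CPM against 740 and 758 in the other 2, and its hepatocyte marker sum 59359 against 71756 and 71532. Its most abundant transcript was Gm26917, at 5.55% of reads, where the other 2 had Alb at 4.43% and 4.38%. The part of these differences in the droplet gene results was not tested.

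In the same comparison, the lipogenic LXR and SREBP-1c targets were called lower in 10 and higher in 1 of 14, with Scd2 at -2.6, Scd1 (the stearoyl desaturase) at -1.97 and Mlxipl at 0.80 on the log2 scale. PPAR-alpha targets were called lower in 11 of 17, with the hormone Fgf21 at -2.27 and Ehhadh, of peroxisomal oxidation, at -1.13. Genes that export triglyceride in lipoproteins were called lower in 7 of 10, Mttp, which loads lipid onto apolipoprotein B, at -0.41. Across all genes tested, 19.7% were called lower in this comparison and 10.4% higher. Abca1 rose in the floxed liver, from 335 ± 7.81 to 470.2 ± 8.03 CPM (log2 0.49, adjusted p = 5.9e-07).

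In Villin-Cre livers, Plin5, Pnpla2 and Plin2 were lower with GW3965. Here 3 of 10 members were called lower and 0 higher, with 9.03% and 2.85% of all genes, and 7 members had an unadjusted p under 0.05. After rescaling, 2 were called lower and Cideb higher (0.26, adjusted p = 0.011), with 3.57% of genes lower and 5.32% higher. After averaging of close libraries, 0 were called and 0 had an unadjusted p under 0.05. Plin5 fell from 128, 126 and 117 CPM to 79.4, 82.5 and 80.3 (log2 -0.61 ± 0.11, adjusted p = 0.0025 by limma). Pnpla2 fell from 192 ± 3.45 to 148 ± 1.62 CPM (log2 -0.38, adjusted p = 0.0046) and Plin2 from 1947 ± 14.9 to 1624 ± 32.7 (log2 -0.26, adjusted p = 0.014), which came to -0.17 (adjusted p = 0.15) after rescaling. Plin4, at 55.7 ± 1.58 and 34.5 ± 0.229 CPM, did not pass (log2 -0.68, adjusted p = 0.092). Nor did Plin3 (log2 -0.12), Cidea (0.66), Cideb (0.16), Cidec (-0.26), G0s2 (0.03) or Hilpda (-0.31). In the fit of only the 2 groups compared, in which replicate 1 of the floxed GW3965 group takes no part, 8 members were called, 7 lower (Plin4 and Cidec among them) and Cidea higher. Macrophage markers went the same way, with 6 of 11 called lower and a sum of 1112 to 1150.5 CPM.

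The response to GW3965 differed between genotypes for 7 of 10 members in the liver, against 19.9% of all genes (10.2% higher in Villin-Cre mice and 9.7% lower, or 12.4% and 7.87% after rescaling, with 5 members higher and 1 lower). With close libraries averaged 0 were called, and 1 had an unadjusted p under 0.05. It was less negative in Villin-Cre livers for Plin2 (difference 0.68 ± 0.09 on the log2 scale, adjusted p = 0.0001 by limma), Cidec (1.74 ± 0.52, adjusted p = 0.03) and Hilpda (0.61 ± 0.19, adjusted p = 0.033). It was higher for Cidea (1.67) and Cideb (0.30), and lower for Plin4 (-1.35) and Plin5 (-0.52). Plin3 (-0.13), G0s2 (0.35) and Pnpla2 (-0.30) did not pass. Cidec lost the call in 11, Hilpda in 7 and Plin5 in 7 of the 12 fits that left out 1 library. The Cidec difference was 2.41 (adjusted p = 2.1e-23) without floxed GW3965 replicate 1.

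**Figure D2:**
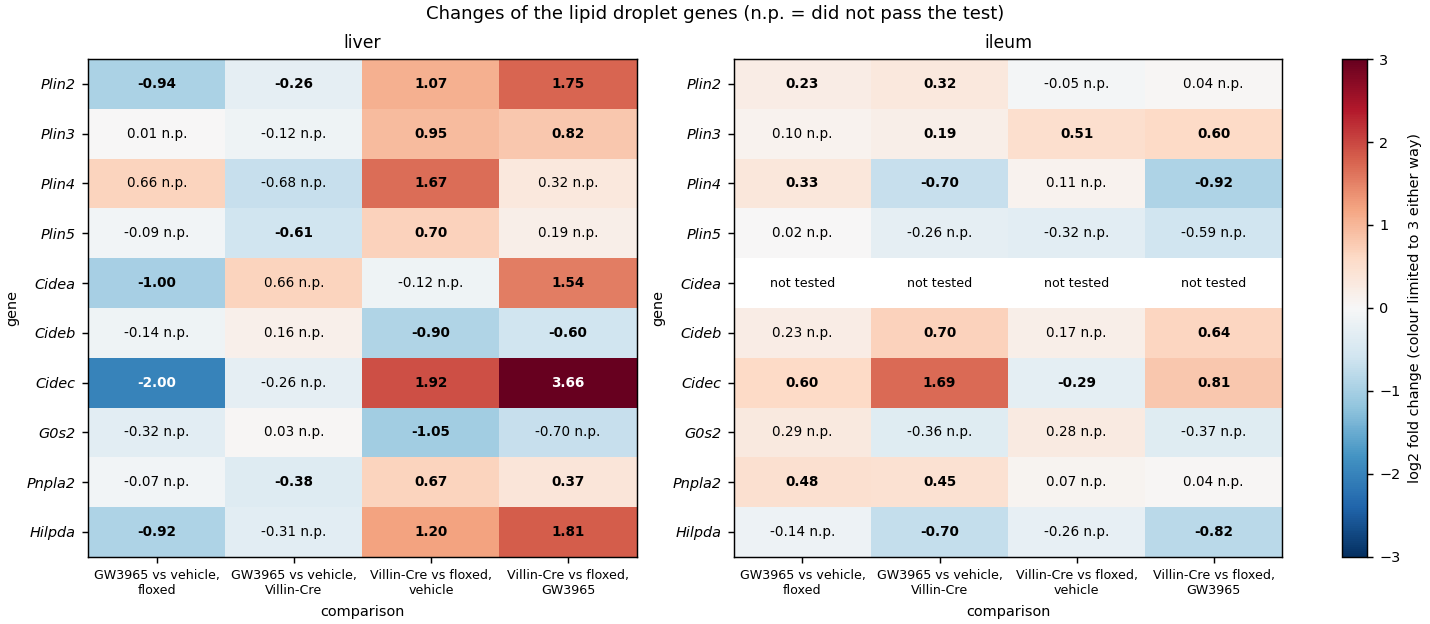
Log2 fold change of each member in 4 comparisons in liver and ileum, in colour and as a printed value. Bold values passed the limma test and n.p. marks those that did not. Cidec has the deepest colours in the liver, at -2.00 with GW3965 in floxed mice and 3.66 for Villin-Cre against floxed mice under GW3965.

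The make-up of the liver perilipins changed with these shifts. Per kb of transcript, Plin2 made up 83.0 ± 0.406% of the RNA of the 5 perilipins (Plin1 included) in floxed vehicle livers, 71.6 ± 0.922% in floxed GW3965 livers, and 85.0 ± 0.215% and 86.7 ± 0.03% in the Villin-Cre groups. The share was lowest in all 3 floxed GW3965 libraries, at 70.5 to 72.3%. Their summed level was 318 ± 8.07, 193 ± 22.1, 652 ± 5.53 and 534 ± 10.8 CPM per kb in the same order. The G0s2 to Pnpla2 ratio per kb was 3.18 ± 0.0513 in floxed vehicle livers and 0.961 ± 0.049 in Villin-Cre vehicle livers. In floxed GW3965 livers it ran from 1.45 to 9.1, the highest being replicate 1.

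**Figure D3:**
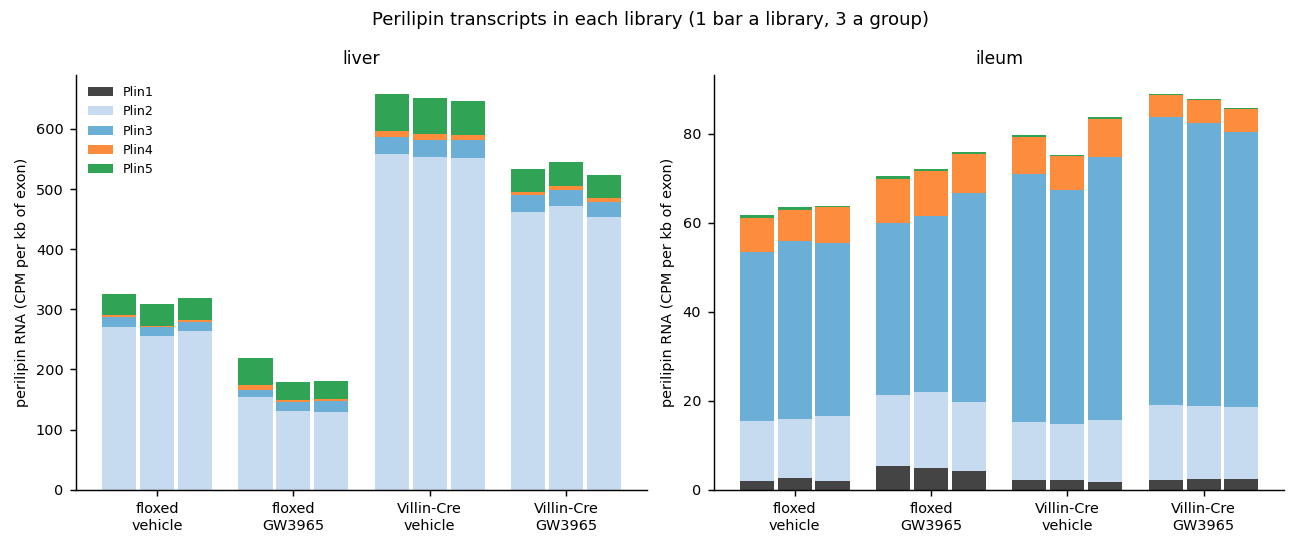
Perilipin RNA (CPM per kb of exon) in each library, with 1 stacked bar a library and 3 a group. Plin2 fills most of every liver bar and Plin3 most of every ileum bar, and the liver sum goes from 180 to 218 in floxed GW3965 mice to 647 to 658 in Villin-Cre vehicle mice. The axes of the panels differ.

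In the ileum the order of the members was another one. In floxed vehicle mice, Plin3 (39.0 ± 0.932 CPM per kb) and Pnpla2 (38.9 ± 1.13) led and did not differ beyond their SDs. Cidec (14.2 ± 0.415 CPM per kb), Plin2 (13.7 ± 0.598), Cideb (9.48 ± 0.899) and Plin4 (7.64 ± 0.579) followed, the first pair again within their SDs. G0s2 (3.85 ± 0.345 CPM per kb), Hilpda (1.03 ± 0.0829), Plin5 (0.475 ± 0.228) and Cidea (0.396 ± 0.324) were low. The 2 tissues come from separate tables, so these levels are set side by side only as a description. Of the 10 members 9 were tested in the ileum, since Cidea reached 0.5 CPM in only 1 library.

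**Figure D4:**
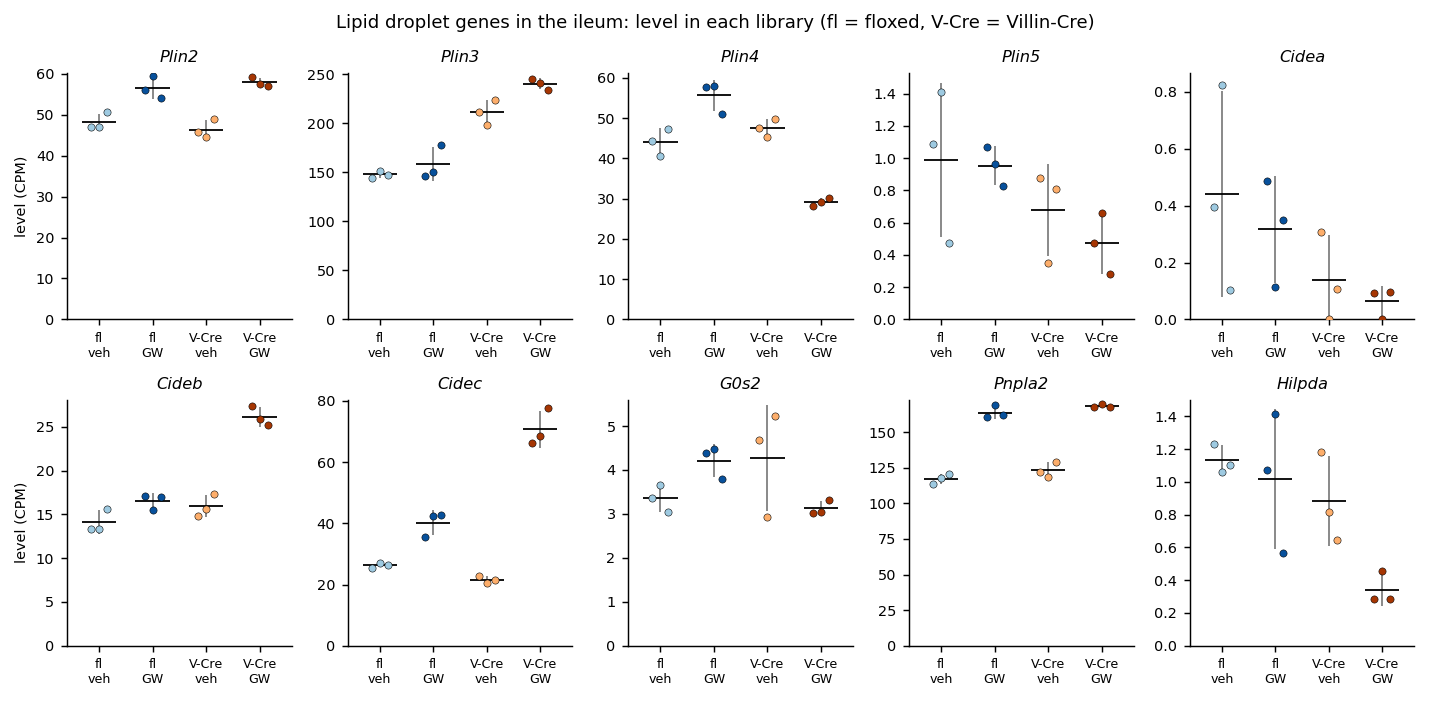
Level (CPM, linear axis from 0) of each member in the 12 ileum libraries, with group means (black) and 1 SD (grey). Cidec and Pnpla2 are higher with GW3965 in both genotypes, Plin3 is higher in both Villin-Cre groups, and Plin4 is lowest in the Villin-Cre GW3965 group.

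Cidec and Pnpla2 were higher with GW3965 in the ileum of both genotypes. In floxed mice, 4 of 9 members were called higher and 0 lower, against 14.7% and 20.9% of all genes, and 5 members had an unadjusted p under 0.05. After rescaling, 5 were called higher, Cideb (0.31) being added, with 18% of genes higher and 15.6% lower. With close libraries averaged 0 were called, and 2 had an unadjusted p under 0.05. Cidec went from 25.5, 27.1 and 26.5 CPM to 35.5, 42.5 and 42.8 (log2 0.60 ± 0.09, adjusted p = 4e-05 by limma). Pnpla2 went from 114, 118 and 121 CPM to 161, 169 and 162 (log2 0.48 ± 0.05, adjusted p = 1.4e-06). Neither gene's groups overlapped. Plin4 (log2 0.33, adjusted p = 0.0026) and Plin2 (log2 0.23, adjusted p = 0.011) rose by less, and Plin2 reached an adjusted p of 0.054 without floxed GW3965 replicate 2. Plin3 (log2 0.09), Plin5 (0.02), Cideb (0.23), G0s2 (0.29) and Hilpda (-0.14) did not pass.

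In the Villin-Cre ileum, 5 of 9 members were called higher with GW3965 and 2 lower, against 21.5% and 31.1% of all genes (27% and 26.8% after rescaling). Averaging close libraries left only Cidec called. Cidec went from 22.8, 20.3 and 21.5 CPM to 66.1, 68.7 and 77.6, or 3.29 times the vehicle mean (log2 1.69 ± 0.09, adjusted p = 6.3e-11 by limma). Cideb went from 15.9 ± 1.24 to 26.1 ± 1.14 CPM (log2 0.70, adjusted p = 1.1e-05) and Pnpla2 from 123 ± 5.53 to 168 ± 1.53 (log2 0.45, adjusted p = 1.1e-06). Plin4 fell from 47.6, 45.2 and 49.8 CPM to 28.2, 29.1 and 30.1 (log2 -0.70 ± 0.08, adjusted p = 6.8e-07). Plin2 (log2 0.32) and Plin3 (0.19) were called higher, and Hilpda, at 23, 14 and 12 reads against 6, 11 and 6, lower (-0.70, adjusted p = 0.027). Plin5 (-0.26) and G0s2 (-0.36) did not pass. Plin3 lost its call in 4 of the fits that left out 1 library, and Hilpda in 3.

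The GW3965 response differed between genotypes in the ileum for 3 of 9 members, against 33% of all genes (33.9% after rescaling), and for 0 with close libraries averaged, where 2 had an unadjusted p under 0.05. It was larger in Villin-Cre mice for Cidec (difference 1.10 ± 0.12 on the log2 scale, adjusted p = 3.3e-06 by limma) and Cideb (0.47, adjusted p = 0.014). For Plin4 it was of opposite sign, up in floxed and down in Villin-Cre mice (difference -1.03 ± 0.11, adjusted p = 1.6e-06). Plin2 (0.09), Plin3 (0.09), Plin5 (-0.28), G0s2 (-0.65), Pnpla2 (-0.03) and Hilpda (-0.56) did not pass.

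Markers of the cell types in the gut wall moved widely with the drug. Across all genes tested, 14.7% were called higher with GW3965 and 20.9% lower in floxed mice, and 21.5% and 31.1% in Villin-Cre mice. All 10 enterocyte markers rose with GW3965 in Villin-Cre mice and 8 of 10 in floxed mice, and all 8 smooth muscle markers fell in both, their sum going from 6518 to 6855 CPM to 843 to 856 in Villin-Cre mice and from 6160.5 to 6247 to 2386 to 3584 in floxed mice. Adipocyte markers were called higher in 8 of 8 tested in floxed mice, with Adipoq going from 10.95 to 23.6 CPM and Plin1 from 10.2 to 22.3, and in 5 of 8 in Villin-Cre mice. The adipocyte sum was 289 to 293, 402 to 562, 158 to 173 and 331 to 349.8 CPM in floxed vehicle, floxed GW3965, Villin-Cre vehicle and Villin-Cre GW3965 mice. The share of reads on the most abundant transcript, Gm26917, moved as well, from 10.4 to 11.6% with vehicle to 6.57 to 7.92% with GW3965 in floxed mice and from 11.5 to 12.2% to 3.92 to 4.2% in Villin-Cre mice. The part of these cells and of this transcript in the droplet gene results was not tested.

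Beside the members, PPAR-alpha targets were called higher with GW3965 in 15 and lower in 1 of 16 tested in the Villin-Cre ileum, with Acaa1b at 4.12, Creb3l3 at 2.29 and Cpt1a, the gate of mitochondrial fatty acid import, at 0.98 on the log2 scale. In floxed mice they were called higher in 11 and lower in 1. Triglyceride export genes were called higher in 10 of 10 in Villin-Cre mice, with Apoc3 at 1.68 and Sar1b at 1.63, and in floxed mice higher in 5 and lower in 3. Lipolysis genes outside the set were called higher in 9 and lower in 2 of 13 in Villin-Cre mice. The shares of all genes called higher and lower were 21.5% and 31.1% in Villin-Cre mice, and 14.7% and 20.9% in floxed mice.

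Between genotypes with vehicle, few ileal members were called before rescaling. Plin3 was called higher (147.65 ± 3.53 against 211 ± 12.6 CPM, log2 0.51, adjusted p = 1.5e-05 by limma) and Cidec lower (26.4 ± 0.771 against 21.5 ± 1.22, log2 -0.29, adjusted p = 0.014). That is 1 of 9 each way, against 9.61% of all genes higher and 30.7% lower. Plin2 (-0.05), Plin4 (0.11), Plin5 (-0.32), Cideb (0.17), G0s2 (0.28), Pnpla2 (0.07) and Hilpda (-0.26) did not pass. With close libraries averaged 0 were called, and 1 had an unadjusted p under 0.05. All genes had a median of -0.18 on the log2 scale here. After rescaling by the median of gene ratios, 20.1% of genes were called higher and 14.6% lower, 5 members were called, all higher, and Cidec came to -0.04.

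Under GW3965, Plin3 (log2 0.60), Cideb (0.64) and Cidec (0.81) were called higher in the Villin-Cre ileum and Plin4 (-0.92) and Hilpda (-0.82) lower, with 13.6% of all genes higher and 38.3% lower. Hilpda rested on 22, 25 and 13 reads in floxed and 6, 11 and 6 in Villin-Cre mice. Without floxed GW3965 replicate 2 its adjusted p was 0.07 by limma. Plin2 (0.04), Plin5 (-0.60), G0s2 (-0.37) and Pnpla2 (0.04) did not pass. Averaging close libraries left only Plin4 called. Cidec stood at 35.5, 42.5 and 42.8 CPM in floxed and 66.1, 68.7 and 77.6 in Villin-Cre mice, without overlap (adjusted p = 8.1e-07 by limma). After rescaling, 25.6% of genes were called higher and 23.6% lower, and 5 members higher and 2 lower.

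GW3965 thus went with opposite changes of Cidec and Plin2 in the 2 tissues of floxed mice, down in liver and up in ileum. The liver response lay below that of the ileum for 5 of 9 members, against 15.2% of all genes, and above it for 0, against 14%. Either way, 29.1% of all genes were called, and 5 members had an unadjusted p under 0.05. The differences were -2.6 ± 0.40 for Cidec (adjusted p = 2.3e-05 by limma), -1.17 ± 0.08 for Plin2 (adjusted p = 5.9e-11), -0.56 for Pnpla2, -0.78 for Hilpda and -0.36 for Cideb on the log2 scale. Hilpda lost this call in 7 of the fits that left out 1 library (adjusted p = 0.054 to 0.11 by limma). Plin3 (-0.09), Plin4 (0.33), Plin5 (-0.11) and G0s2 (-0.61) did not pass. In Villin-Cre mice the liver response lay below that of the ileum for 4 of 9 members, against 20.7% of all genes. It lay above for 0, against 22.1%. Either way, 42.8% of all genes were called, so the member count was near that share, and 5 members had an unadjusted p under 0.05. The 4 called were Cidec (-1.96 ± 0.40, adjusted p = 0.00034 by limma), Pnpla2 (-0.83), Plin2 (-0.58) and Cideb (-0.54). Plin3 (-0.31), Plin4 (0.01), Plin5 (-0.34), G0s2 (0.39) and Hilpda (0.39) did not pass. After averaging of close libraries, 0 members were called in either genotype, and 1 in each had an unadjusted p under 0.05.

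**Figure D5:**
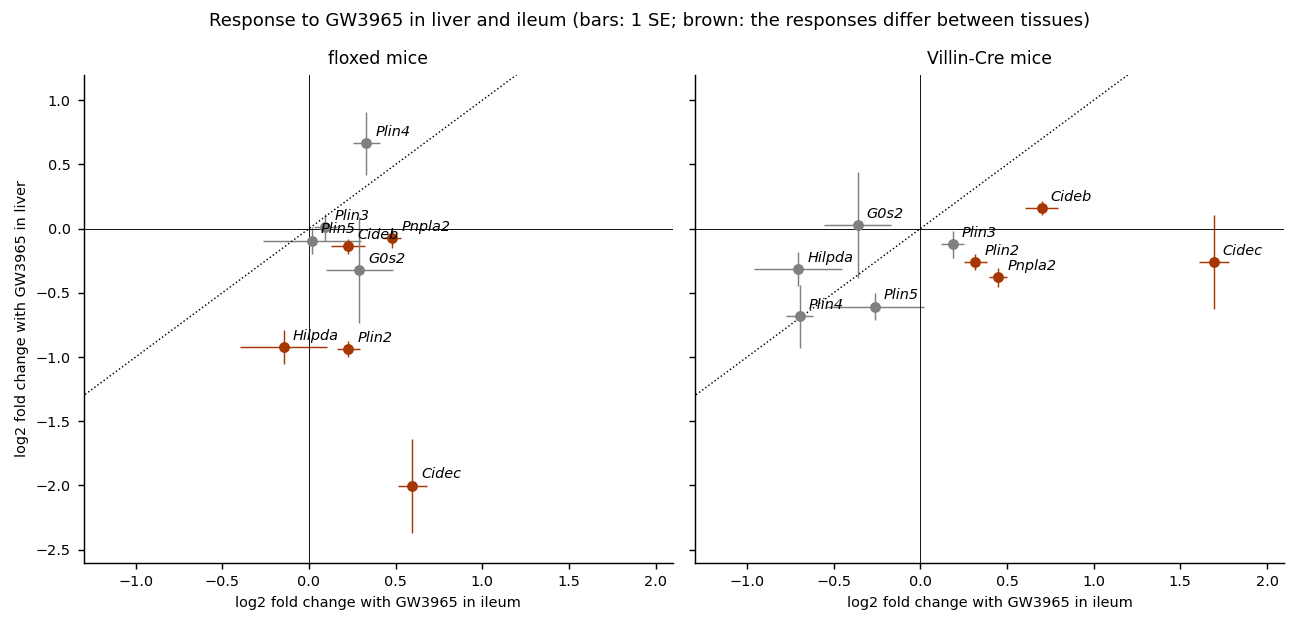
Log2 fold change with GW3965 in the ileum (horizontal) and liver (vertical) for the 9 members tested in both, with bars of 1 SE and a dotted line where both are equal. Brown points passed the test of the difference between tissues. Cidec lies farthest from the line, at 0.60 in ileum and -2.00 in liver of floxed mice, and at 1.69 and -0.26 in Villin-Cre mice.

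Across the 6 changes of group means from floxed vehicle (3 a tissue), the genes most like Cidec among 11938 others were Fndc10, F2rl1 and Cd63, with root mean square differences of 0.39, 0.52 and 0.52 on the log2 scale. For Hilpda they were Srgn (0.17), Akr1b8 (0.18) and Slc48a1 (0.18). Plin2 was matched most closely, by Itpripl2 (0.10), Setd7 (0.15) and St14 (0.17). All 6 changes share the floxed vehicle libraries, so these are descriptions of likeness only.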

How the data were processed

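RNA was sequenced from liver and ileum, 12 libraries each. Per the labels' protocols, ribosomal RNA was removed with RiboErase and cDNA was made with random hexamers. Per the submitters' processing notes, STAR 2.5.1a, Subread, featureCounts 1.4.6-p5 and GRCm38 were used. No source used here states the annotation release, the strand setting or how the log was taken.

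The authors deposited log2 values, 40757 entries a tissue, of which 276 repeated others and were dropped. All libraries share 1 lowest value, taken as 0 reads. Subtracting it on the linear scale gave CPM, and every low value (under 2 CPM) came out as a whole number of reads within 0.05 reads (100%). CPM carries no composition factor. More low read numbers were even than odd, 65.5 to 70.4% of a library, so both mates of a pair may have been counted, and reads are then not independent.

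limma 3.58.1 in R 4.3.3 was fitted to log2(CPM + 0.5) with an empirical Bayes trend and a mean for each group. Each tissue (12 libraries) was fitted on its own, except for the difference between tissues. That came from 1 fit of all 24 libraries in 8 groups, with 1 spread per gene shared by both tissues. It treated liver and ileum libraries as independent, although they may come from the same mice. Tests covered genes that reached 0.5 CPM in 3 or more libraries (17520 in liver, 18656 in ileum, 16322 in both for the tissue difference), with Benjamini-Hochberg adjustment over all of them and a threshold of 0.05. A fold change on this scale understates changes of low genes. The fit was checked on simulated reads, drawn independently with no library set apart and no mates counted together. That check does not cover these traits of the data. Levels per kb use the summed exon length in the GENCODE annotation of GRCm38. Python 3.11.15 with pandas 2.3.3 drew figures and promoter matches, on RefSeq windows of GRCm38.p6.

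Members are named by symbol, and genes of a list are drawn from the 4 with the smallest p, some of which are not reported here. Members, lists and tests were chosen with earlier results of these data known. The alternatives were no filter, rescaling by the median of gene ratios, a pseudocount of 2, a fit of only the groups compared, a replicate block, voom on recovered reads, averaging of close libraries (variance under 4 times Poisson), and leaving out each library. A floor of 3 reads was at most 0.1765 CPM in any library, and covers counting error only.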

Additional observations from a re-analysis of the deposited data

Results flagged for a closer look

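The following differences in the GW3965 response passed limma's test of the difference itself (an interaction or a tissue term, Benjamini-Hochberg adjusted). All are log2 values. In the liver, the Villin-Cre response less the floxed response was 0.68 for Plin2, -1.35 for Plin4, -0.52 for Plin5, 1.67 for Cidea, 0.30 for Cideb, 1.74 for Cidec and 0.61 for Hilpda. In the ileum, the same difference was -1.03 for Plin4, 0.47 for Cideb and 1.10 for Cidec. Of all genes, 19.9% were called for this difference in the liver and 33% in the ileum. The ileal count, 3 of 9 members, was near that share.

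The liver response minus the ileal response in floxed mice was -1.17 for Plin2, -0.36 for Cideb, -2.6 for Cidec, -0.56 for Pnpla2 and -0.78 for Hilpda. In Villin-Cre mice it was -0.58 for Plin2, -0.54 for Cideb, -1.96 for Cidec and -0.83 for Pnpla2. Of all genes, 29.1% were called for this difference in floxed and 42.8% in Villin-Cre mice. The Villin-Cre count, 4 of 9 members, was near that share. Cidec and Cideb are the 2 members found in all 4 of these comparisons, and G0s2 and Plin3 are in none. Reads of Nop9 may be part of the Cideb value. Leaving out 1 library ended the call in 11 fits for Cidec, 7 for Hilpda and 7 for Plin5 in the liver difference between genotypes, and in 7 for Hilpda in the floxed tissue difference. For Cidea the difference rests on 4, 0 and 0 reads in floxed GW3965 livers.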

How the results depend on the processing

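The 113 log2 values of members comprised 60 calls. With close libraries averaged, 6 of the 60 kept their call: Plin2, Cidea, Cidec and Hilpda between genotypes in GW3965 livers (adjusted p = 0.02 to 0.045), and Cidec with GW3965 and Plin4 under GW3965 in the ileum. Counts of called members were then 4 for Villin-Cre against floxed under GW3965 in liver, 1 each for GW3965 in the Villin-Cre ileum and genotype under GW3965 in the ileum, and 0 in every other comparison, where 0 to 8 members had an unadjusted p under 0.05. These fits have fewer samples, and take libraries whose variance was under 4 times Poisson as 1. Ileum floxed vehicle replicates 2 and 3, which were not close to each other, were joined through replicate 1. In each tissue only the floxed GW3965 group then keeps more than 1 value, so the spread rests on that group alone. The loss of calls was thus largely set by the design and says little about the members. Elsewhere, 56 of 60 calls held after rescaling, 54 without a filter, 59 with a pseudocount of 2 and 57 with voom. Counts moved to 8 for GW3965 in Villin-Cre livers in the fit of only those groups, 4 for the liver genotype difference in response without a filter, and, for genotype with vehicle in the ileum, 5 after rescaling and 1 with voom.

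Leaving out 1 library gave, in liver, 4 to 8 members called for GW3965 in floxed and 2 to 8 in Villin-Cre mice, 8 to 9 and 7 to 9 for genotype with vehicle and GW3965, and 4 to 10 for the difference in response. In ileum the ranges were 3 to 5, 5 to 7, 2 to 2, 4 to 5 and 3 to 4, and for the tissue difference 4 to 6 (floxed) and 4 to 5 (Villin-Cre). The highest liver counts came without floxed GW3965 replicate 1.

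Signs turned as follows, and the cause was not tested. Averaging gave Plin3 -0.076 and G0s2 0.061 (GW3965, floxed liver), G0s2 -0.033 (liver difference in response), Plin5 -0.071 (GW3965, floxed ileum) and Plin5 0.067 (tissue difference, floxed). Rescaling gave Plin5 -0.05 (genotype under GW3965, liver), Plin2 0.19 (genotype with vehicle, ileum), Pnpla2 0.002 (ileum difference in response) and Plin4 -0.006 (tissue difference, Villin-Cre). A pseudocount of 2 gave Plin5 -0.006 (GW3965, floxed ileum). Leaving out 1 library gave, for GW3965 in floxed liver, Plin3 -0.099 to 0.18, G0s2 -1.09 to 0.063 and Pnpla2 -0.14 to 0.038. G0s2 ranged from -0.016 to 0.059 with GW3965 in Villin-Cre liver, from -1.08 to 0.066 between genotypes under GW3965 and from -0.034 to 1.12 for the liver difference in response. In ileum, Plin5 ran from -0.26 to 0.22 and Hilpda from -0.33 to 0.088 with GW3965 in floxed mice, and for the difference in response Plin5 from -0.50 to 0.002 and Pnpla2 from -0.059 to 0.004. For the tissue difference, Plin3 ran from -0.19 to 0.083, Plin4 from -0.12 to 0.57 and Plin5 from -0.32 to 0.17 in floxed mice, and Plin4 from -0.021 to 0.048 in Villin-Cre mice.

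Within a tissue, deviations of same-numbered libraries of different groups had a median correlation of 0.00135 in liver and 0.00676 in ileum. Whether liver and ileum libraries of the same number and group come from 1 mouse was not examined. With a replicate block, 59 of 60 calls held, Hilpda's liver difference in response (0.61) moving to an adjusted p of 0.05. At the lowest depth, 3 reads are 0.1765 CPM, so Cidea in both tissues and ileal Hilpda and Plin5 rest on few reads.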
